A study of Drosophila melanogaster with 2 samples.

Results

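Dlip2 is the gene of the protein tagged in this experiment, and it belongs to the MADF-BESS family of Drosophila DNA-binding proteins. The 9 genes described here are Dlip2 and 8 relatives (Dlip3, Adf1, brwl, CG5953, stwl, hng1, hng2 and hng3), out of 13968 protein-coding genes on the chromosome arms. They were chosen by name and family and not by a threshold on measured values. A peak was counted for a gene when its summit lay in the gene body or within 2000 bp of it. ChIP-seq (sequencing of DNA recovered by chromatin immunoprecipitation) used an anti-GFP antibody on whole embryos of the strain Dip2-GFP, aged 0 to 18 hours, whose transgene makes a Dip2-eGFP fusion. A single group was analysed, with 2 biological replicates of sonicated chromatin of 200 to 800 bp, so there was no contrast between conditions. Whole embryos mix the cell types and stages of that interval, and the promoter of the transgene is not given in the sources used. The source label names Dlip2 as the targeted gene, while the antibody label says Dip2, a synonym of Dlip2 that is also written like the symbol of another gene, DIP2 (Disco-interacting protein 2).

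MADF-BESS proteins pair a MADF domain, which binds DNA and resembles the Myb fold, with a BESS motif through which they bind other proteins, including each other. Several are transcription factors or coregulators. Adf1 was found as an activator of the Adh promoter and is needed for synapse growth and memory. Dlip2 and Dlip3 take their names from the Dorsal-interacting proteins, stwl (stonewall) maintains female germline stem cells, and the hng genes act in the wing hinge. Binding of such a factor near its own gene or its relatives' genes is one form that cross-regulation in a family can take.

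Reproducible peaks lay at 3 of the 9 genes: Adf1, brwl and CG5953. Among all protein-coding genes with a candidate peak, 7.99% had a reproducible peak, by the conservative list described below. The sequences that follow, 201 bases centred on a summit and written 5′ to 3′ on the plus strand of dm6 (RefSeq), show the called sites at brwl and CG5953, the weaker site at the downstream start of brwl, and, for comparison, the candidate of highest signal near Dlip2, which was not called. Capitals mark matches, on either strand, to any of 7 motifs. The core of the insulator protein CTCF was searched as AGAGGGC, as its variant AGATGGC, and in the spelling AGGGGGC plus the related form AGGTGGC. The TATA box was searched as TATAAA and the DRE, the replication-related element, as TATCGATA. That element holds the shorter motif CGATA, which was searched on its own. The GAGA factor motif was searched as GAGAG, the early embryonic activator Zelda by CAGGTAG, and the promoter factor M1BP by its motif GGTCACAC.
brwl upstream site, chr2L:9568621-9568821: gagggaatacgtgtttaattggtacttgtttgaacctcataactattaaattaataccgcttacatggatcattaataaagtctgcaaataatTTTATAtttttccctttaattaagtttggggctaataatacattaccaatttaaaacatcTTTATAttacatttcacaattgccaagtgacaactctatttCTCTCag
brwl downstream start, chr2L:9570035-9570235: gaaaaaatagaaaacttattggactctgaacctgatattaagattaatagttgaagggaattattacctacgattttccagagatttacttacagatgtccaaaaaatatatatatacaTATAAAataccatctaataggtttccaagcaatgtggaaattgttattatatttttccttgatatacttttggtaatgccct
CG5953 upstream site, chr2L:16533222-16533422: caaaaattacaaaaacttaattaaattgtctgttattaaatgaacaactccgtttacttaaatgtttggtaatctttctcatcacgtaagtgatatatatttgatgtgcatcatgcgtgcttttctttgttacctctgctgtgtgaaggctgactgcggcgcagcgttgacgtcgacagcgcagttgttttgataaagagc
Dlip2 candidate, chr3R:4647439-4647639: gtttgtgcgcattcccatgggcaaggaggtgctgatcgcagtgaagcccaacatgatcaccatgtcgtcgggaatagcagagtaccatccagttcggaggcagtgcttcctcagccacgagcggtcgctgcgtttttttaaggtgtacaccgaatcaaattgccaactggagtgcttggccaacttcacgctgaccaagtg

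Both sites of brwl were rich in A and T. The GC content was 28.4% at the upstream site and 27.4% at the downstream start of brwl, 37.3% at CG5953 and 53.7% at the Dlip2 candidate. TATAAA, the TATA box, was present on the minus strand 4.5 bp left of the summit and 55.5 bp right of it at the brwl upstream site. At the downstream start of brwl it lay on the plus strand, centred 21.5 bp right of the summit. The CG5953 and Dlip2 windows held none of the 7 motifs. A match is a run of letters and not a tested site.

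Peaks were called by the irreproducible discovery rate (IDR), the estimated chance that a peak's rank is not repeated between a pair of peak sets. The authors scale it to a score that reaches 1000 for the most reproducible peaks. No thresholded peak scored below 830, an IDR of about 0.01, and this value is called the threshold score here. A score above it did not always bring a call. In the conservative list the highest candidate scored 1000 at cbt and 962 at COX7AL2, and neither gene had a thresholded peak. Why they were left out was not tested. At the 9 genes every candidate scoring 830 or more was thresholded. The conservative list holds 629 thresholded peaks from 129448 candidates, the optimal list 973 from 140235, replicate 1's own list 550 from 104058 and replicate 2's own list 742 from 111249. At the 9 genes these lists held 3 thresholded peaks of 48 candidates (conservative), 4 of 83 (optimal), 2 of 40 (replicate 1) and 4 of 70 (replicate 2). The signal of a peak is the authors' own value, and it is compared here within a list only. Its median among thresholded peaks was 127 in the conservative list, 72.1 in replicate 1 and 69.996 in replicate 2.

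In the conservative list 3 of the 9 members were called, or 3 of the 8 with a candidate peak, since Dlip3 had none. Among all protein-coding genes with a candidate in the same window, 959 of 11995 were called (7.99%). The count was 3 of 9 in the optimal list, where 10.1% of genes were called, 3 of 9 in replicate 2's list (7.90%) and 2 of 8 in replicate 1's list (6.20%), which lacked CG5953. With 9 genes, 1 gene more or less changes the share by a large step, and no test was made. Longer windows were called more often when all genes were split into 4 equal groups by window length. The percentage of genes called was 4.36% in the group with the shortest windows, which holds Dlip2 and hng1, and 13.0% in the group with the longest, which holds Adf1, CG5953, stwl and hng3. It was 8.20% in the group of brwl and 5.98% in that of Dlip3 and hng2. The rule for a call also set the count. Each alternative below is counted over the genes with a candidate under its own rule. With summits in the gene body alone, 1 of 6 members (Adf1) and 2.60% of genes were called. Within 500 bp of a start, brwl and CG5953 were called (2 of 4 members, 4.71% of genes). Where the nearest start of any gene had to be the member's own, Adf1 and CG5953 were (2 of 8 members, 4.02% of genes). The same 3 members were called within 500 bp of the gene body (of 6, 5.82% of genes) and within 5000 bp of it (of 9, 11.4%). They were also called by overlap of the peak in place of its summit (of 8, 8.21%). The same held at a score of 1000 (of 8, 5.79%) and at a score of at least 540 in the ranked list (of 8, 12.3%).

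By gene, the highest scores fell into separate ranges, which is partly built in because no peak was called below the threshold score. Single candidates lay between them, at 353 and 404 for brwl in the conservative list, without a call. In the conservative list Adf1, brwl and CG5953 each reached 1000, and the highest scores of the others were 186 at hng3, 101 at hng1, 49 at stwl, 38 at Dlip2 and 18 at hng2. The 23 candidates at the genes without a call had scores of 18 to 186 and signals of 4.05 to 37.7. The median of the highest score was 143.5 over the 8 members with a candidate and 131 over all such protein-coding genes, and the median of the highest signal was 37.1 and 35.8. The median highest score was 115 over the members and 177 over all genes in the optimal list, 92 and 44 in replicate 1, and 46 and 45 in replicate 2. The median highest signal was 36.5 over the members and 35.9 over all genes in the optimal list, 31.9 and 20.1 in replicate 1, and 27.3 and 21.2 in replicate 2. The family's place among all genes therefore differed between the lists. In the conservative list CG5953, brwl and Adf1 had a highest signal above that of 94.6%, 96.7% and 98.2% of genes.

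**Figure D1:**
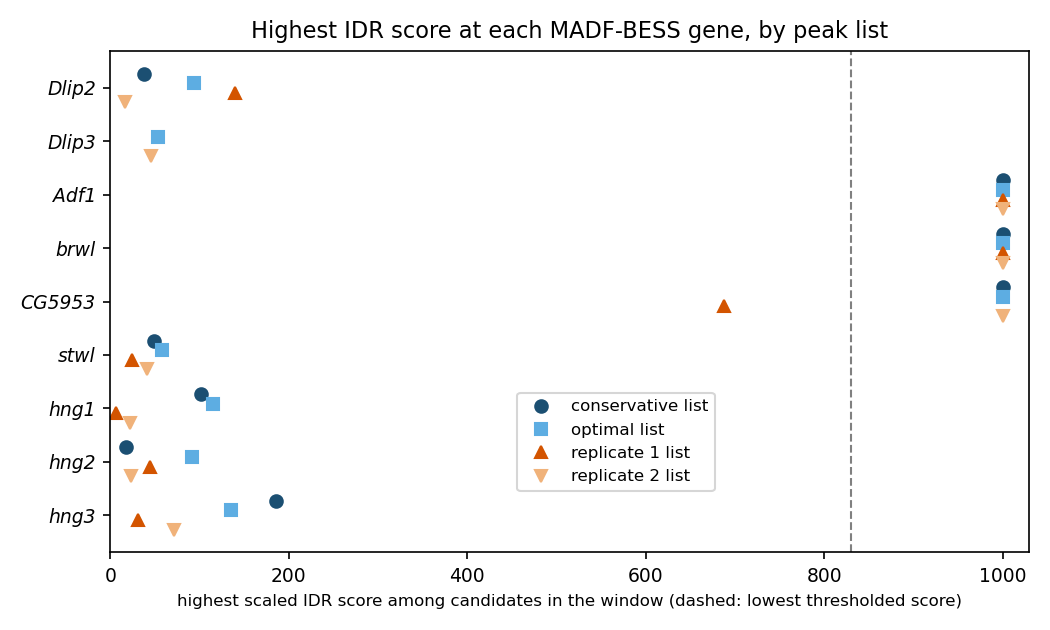
Highest scaled IDR score (x axis, 0 to 1000) among the candidate peaks of each of the 9 genes (rows), with 1 symbol for each of the 4 ranked lists; the dashed line is the lowest thresholded score, 830. Adf1 and brwl sit at 1000 in every list and CG5953 at 1000 in all but replicate 1 (688), while the other genes stay at or below 186.

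**Figure D2:**
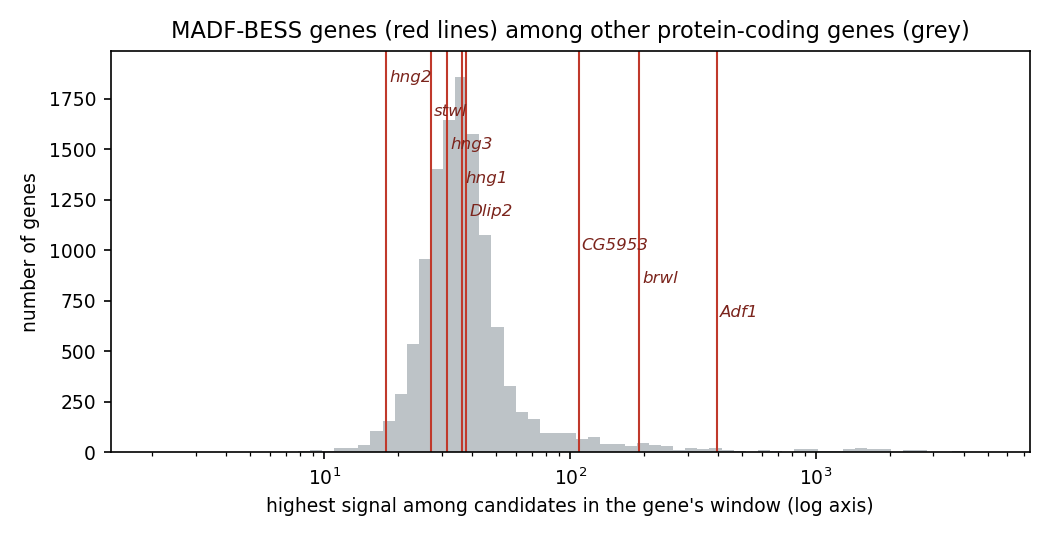
Highest signal among the candidates of each gene in the conservative ranked list (x axis, log scale), as red lines for the 8 members with a candidate and as a grey histogram of gene numbers for the other protein-coding genes. Adf1 (395), brwl (191) and CG5953 (108) lie in the right tail, and the other 5 members lie between 17.9 and 37.7, inside the bulk of genes.

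The tagged gene itself had no called site in any list. Dlip2 (FBgn0040466) lies on 3R from 4644649 to 4645655 on the minus strand, is 1007 bp long and has 1 annotated start. Its highest signal was 37.7 in the conservative list, above 57.2% of protein-coding genes with a candidate. In the lists of the single replicates the highest signal was 36.9 in replicate 1, above 92.3% of genes, and 27.6 in replicate 2, above 78.2%. Both replicates therefore gave Dlip2 a signal in the upper part of genes, but not at the same place.

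All 3 conservative candidates of Dlip2 lay upstream, 993, 1319 and 1884 bp from its start, inside the divergent neighbour rpk (a channel of the DEG/ENaC family) and the antisense gene asRNA:CR44155. The strongest, 1884 bp upstream, had a replicate 1 summit 16 bp away with a signal of 36.9 and a replicate 2 summit 100 bp away with a signal of 4.07. Its score was 36, an IDR of 0.816, although its signal was above that of 94.4% of all candidates. The candidate 1319 bp upstream had a signal of 20.6 in replicate 1, where its score of 140 was the highest at Dlip2 in any list, and 4.59 in replicate 2. The strongest replicate 2 candidate (27.6) lay on the other side, 1820 bp downstream of the start in slx1. Replicate 2 also had weak candidates at the Dlip2 start itself, 179 bp upstream (signal 8.95) and 387 bp downstream (10.4), with scores of 16 and 5. Replicate 1 had none there. rpk starts 326 bp from Dlip2 on the opposite strand, so a summit between them could belong to either.

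For the gene whose name is confused with the target, DIP2, the highest score was 146 in the conservative list, 375 in the optimal list, 111 in replicate 1 and 453 in replicate 2. None of these passed the threshold, and the conservative signal of 40.2 was above 65.3% of genes. Neither gene that the label could mean had a called peak of its own.

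Dlip3 (FBgn0040465), whose protein binds Dorsal and Twist, had no candidate in the conservative list or in replicate 1. The gene lies on 2R from 18128494 to 18130246 and is 1753 bp long. Replicate 2 gave it 2 candidates, 401 and 1268 bp downstream of the start, with signals of 21.0 and 19.6 and scores of 46 and 16. The optimal list had 7, the highest with a signal of 28.5 and a score of 53, 395 bp downstream of the start. Dlip3 was the only member without a candidate in 2 of the 4 ranked lists. Of all protein-coding genes, 85.9% had a candidate in the conservative list and 84.1% in replicate 1. The 8 of 9 members with one in each are near these shares.

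Adf1 had the strongest site of the family. The gene (FBgn0284249) lies on 2R from 6662265 to 6668085 on the plus strand, with starts at 6662265 and 6662270. The conservative peak ran from 6662924 to 6663175, with its summit at 6663057 in an intron, 787 bp downstream of the nearest start. Its signal of 395 ranked 138 of the 629 thresholded peaks and put Adf1 above 98.2% of protein-coding genes.

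The replicates gave the Adf1 site nearly the same place and rank. The signal was 196 in replicate 1, above 98.3% of genes, and 196 in replicate 2, above 98.2%. The replicate summits lay 8 and 15 bp from the summit of the conservative list. The IDR was 1.72e-05 in replicate 1 and 1e-05 in replicate 2. The peak was short, 252 bp against the 364 bp of the other called sites, and its window of 201 bases had a GC content of 43.8% and TATAAA centred 5.5 bp left of the summit. Dpit47, a co-chaperone gene, starts 147 bp from Adf1 on the opposite strand and has the same peak in its own window. The other 4 conservative candidates of Adf1 had scores of 47 to 98, and 3 of them lay outside the gene body.

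brwl, a family member named in full brickwall, had called sites at both of its annotated starts, though not in every list. The gene (FBgn0032130) lies on 2L from 9568890 to 9573572 on the plus strand, with starts at 9568890 and 9570271. The upstream site, from 9568539 to 9568902 with its summit at 9568721, lay 169 bp upstream of the first start, had a signal of 191 in the conservative list and ranked 229 of 629. Its signal was 98.0 in replicate 1 and 93.0 in replicate 2, above 97.3% and 96.4% of genes, with a score of 1000 in each. The replicate summits lay 1 and 36 bp from the conservative one. This summit is also 64 bp inside lncRNA:CR44149, a non-coding gene that starts 105 bp from brwl on the opposite strand and has the nearest start.

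The site at the downstream start of brwl differed between the replicates. Its summit at 9570135 lay 136 bp upstream of the start at 9570271 and 1245 bp inside the gene. Replicate 2 gave it a signal of 57.4, a score of 1000 and a place in the thresholded list, with the summit 80 bp away. Replicate 1 gave it a signal of 20.5 and a score of 17, with the summit 1 bp away. In the lists from both replicates the signal was 77.6, and the score was 404 in the conservative list (not thresholded) and 1000 in the optimal list (thresholded). A candidate 1419 bp upstream of brwl, nearest to the start of jp, had a signal of 43.8 and scores of 353 (conservative) and 474 (optimal). The remaining 9 conservative candidates of brwl had scores of 18 to 69.

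CG5953, a family member with no given name and the longest of the 9 genes, had a site that passed the threshold in replicate 2 and not in replicate 1. The gene lies on 2L from 16508078 to 16532877 on the minus strand (FBgn0032587, 24800 bp), with starts at 16532877 and 16520177. The conservative peak from 16533140 to 16533503 had its summit at 16533322, 445 bp upstream of the 5′ end, outside any annotated gene, with a signal of 108 and rank 380 of 629. Replicate 2 gave it a signal of 74.1 and a score of 1000, an IDR of 0.000290. Replicate 1 gave it a signal of 38.0 and a score of 688, an IDR of 0.0220, which is below the threshold score. The summits nonetheless agreed in place, 23 bp (replicate 1) and 11 bp (replicate 2) from the conservative summit. CG5953 was above 92.6% of genes by signal in replicate 1 and above 95.6% in replicate 2.

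Inside CG5953 a candidate in a coding exon, 5347 bp from the 5′ end, had a score of 778 in the optimal list. Its signal there was 53.6, and its score was below the threshold. Replicate 2 had a summit 54 bp from this candidate with a signal of 28.2 and a score of 138. The nearest replicate 1 summit was 5769 bp away, at the upstream site, and the conservative list had no candidate at this place. The candidate was therefore seen in replicate 2 and not in replicate 1. No other candidate at any member scored above 474 without being thresholded in some list.

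**Figure D3:**
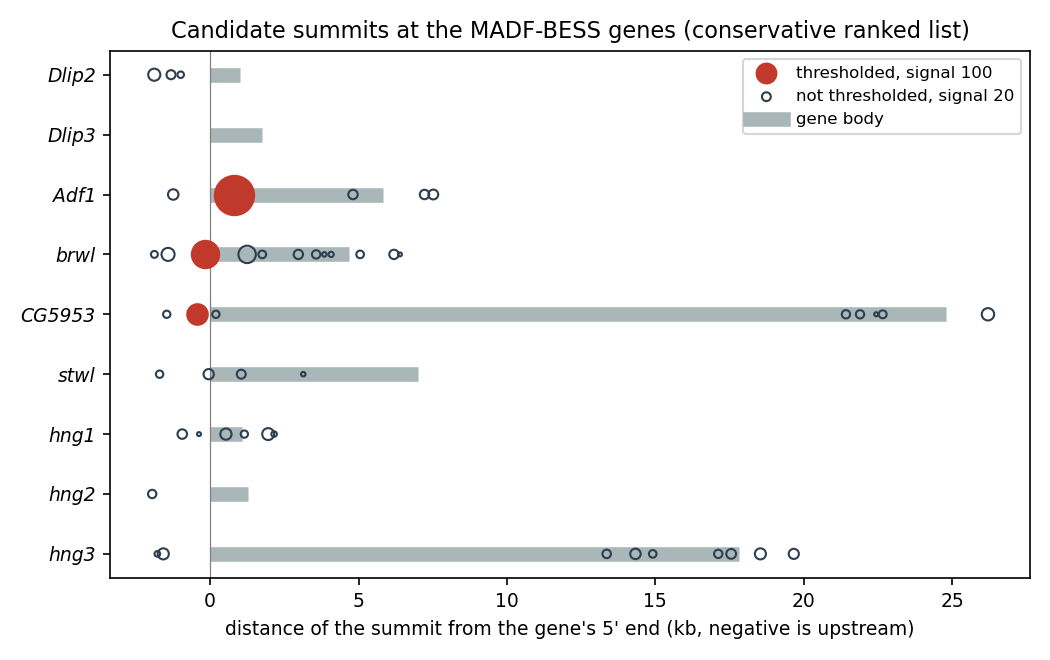
Candidate summits of the conservative ranked list at the 9 genes, by distance from each gene's 5′ end in kb (x axis, negative is upstream); the area of a circle is proportional to its signal, filled red circles are thresholded peaks and grey bars are gene bodies. The called sites lie at 792 bp in Adf1, -169 bp at brwl and -445 bp at CG5953, and Dlip3 has no candidate.

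The remaining members had no called site, and their place by signal differed between the lists. stwl was above 17.7% of genes by highest signal in the conservative list, 79.7% in replicate 1 and 62.1% in replicate 2. It had candidates 46 and 50 bp upstream of its starts, with signals of 20.6 and 27.04 and scores of 18 and 46. The second of these had a replicate 1 summit 83 bp away with a signal of 26.8, and the nearest replicate 2 summit was 1832 bp away. Of the 8 members with a conservative candidate, stwl alone had the CTCF core within 100 bp of its summit of highest signal. The core was centred 52 bp right of that summit. Over all protein-coding genes with a candidate the share was 12.7%, so 1 of 8 is near it.

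hng1 had summits repeated in both replicates, with low scores. Its candidate 531 bp downstream of the start, in a coding exon, had a summit at the same base in replicate 1 (signal 13.5) and 4 bp away in replicate 2 (17.5), and a conservative score of 101. The one of highest signal (36.5) lay 117 bp upstream of the start of Xpd and had summits 12 bp (replicate 1) and 6 bp (replicate 2) away, with a score of 43. By signal hng1 was above 11.98% of genes in replicate 1 and above 65.3% in replicate 2.

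hng2 had 1 conservative candidate, 1954 bp upstream in CG9839 and CCT7, with a signal of 17.9, above 2.27% of genes. In the replicates hng2 was above 19.5% (replicate 1) and 28.7% (replicate 2) of genes. hng3 was above 34.4% of genes in the conservative list, 73.2% in replicate 1 and 77.5% in replicate 2. hng3, which spans 17810 bp, had 9, of which the 2 with the highest score (186) lay 1580 and 1780 bp upstream of its 5′ end with signals of 31.6 and 8.15. Replicate 2 had a summit 68 bp from the one nearer to the gene (signal 18.5), and replicate 1 had none within 100 bp of either. None of these 4 genes had a score over 186 in any list.

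**Figure D4:**
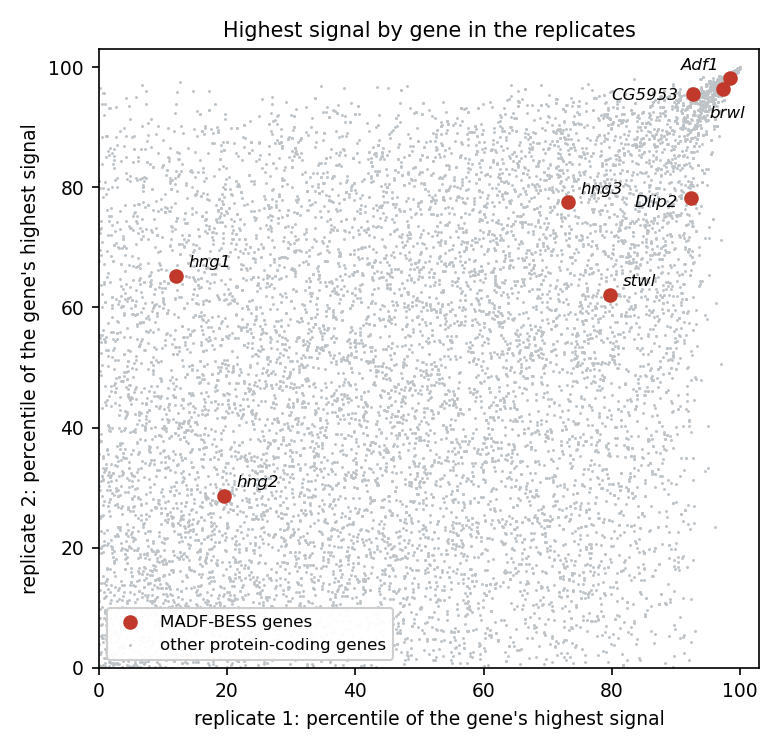
Percentile of each gene's highest signal among protein-coding genes in replicate 1 (x axis) and in replicate 2 (y axis), for genes with a candidate in both: red points are 8 members (Dlip3 had no replicate 1 candidate) and grey points are the other genes. Adf1, brwl and CG5953 lie in the dense upper right corner, and hng1 is far lower in replicate 1 than in replicate 2. Dlip2 is high in both, but from summits at different places, neither of them in its gene body.

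Over the family, 16 of the 40 replicate 1 candidate summits (40%, exact Clopper-Pearson interval at 95% 24.9% to 56.7%) had a replicate 2 summit within 100 bp. Over all protein-coding genes the share was 36.8% of 77110 summits, inside that interval. Of the replicate 2 summits at the family, 16 of 70 (22.9%) had a replicate 1 summit within 100 bp, against 31.9% over all genes. Summits of 1 gene are not independent, so the intervals cover the number of summits only. All 3 replicate 1 summits with a score of at least 300 were repeated in replicate 2 (interval 29.2% to 100%). The share was 74.1% of 958 such summits over all genes. The 3 summits are the sites of Adf1, brwl and CG5953 called in the conservative list, which was made from both replicates. Their repeat was therefore largely set by that call and is not a separate measure of agreement.

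Most candidates at these genes were closer to another gene's start. In the conservative list 30 of 48 were nearest to the start of a gene other than the member, 18 lay inside the body of another gene and 27 lay outside the member's own body. A divergent start within 1000 bp was annotated for 6 of the 9 genes. None of these counts was set beside the same share over all genes, so they describe the members only. The median offset from the nearest start of the member was 659 bp downstream, against 2447 bp over all protein-coding genes, and 8 of 48 (16.7%) lay within 500 bp of a start, against 10.2%. The median is over summits and not over genes, so members with many candidates weigh more. With 1 summit per gene, that of highest signal, the median lay upstream for the members, at -307 bp, and at 1029 bp over all genes. Of these summits 6 of 8 lay upstream, against 33.8% over all genes. Those of Dlip2, hng2 and brwl lay inside neighbouring genes. For the candidates of replicate 2 alone the median offset was 1374 bp, against 2176 bp over all genes. By location, 23 candidates lay outside the gene body and over 500 bp from a start, 11 in coding exons, 8 within 500 bp of a start (inside or outside the body), 5 in introns and 1 in another exon. Apart from the count within 500 bp, these locations have no all-gene share beside them.

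The GC content at the called summits of brwl (28.4%), CG5953 (37.3%) and Adf1 (43.8%) lay below the middle of all genes. The median GC content at the summit of highest signal was 43.8% over the 8 members (26.4% to 53.7%) and 49.8% over all protein-coding genes, and it was 36.3% over the 611 thresholded peaks on the arms. TATAAA was present within 100 bp of the called summit at Adf1 and brwl and not at CG5953, against 37.0% of thresholded peaks and 13.7% of the highest summits of all genes. The CTCF core, which 32.6% of thresholded peaks held, was absent from these letters at all 3 called summits, also within 250 bp. GAGAG was present at brwl, 96 bp right of the summit, and occurred in 19.97% of thresholded peaks. None of the 3 windows held the DRE, the CGATA motif, the Zelda motif or the M1BP motif, which were found in 2.78%, 30.9%, 0.655% and 0.982% of thresholded peaks. Within 250 bp CGATA was present at Adf1 and brwl (53.2% of thresholded peaks) and GAGAG at brwl and CG5953 (49.9%).

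A list of 15 further genes with a MADF or BESS domain was drawn up from general knowledge and not checked against a domain annotation. Of these, 2 of the 12 with a candidate in the conservative list were called, jigr1 and CG4004 (7.99% over all genes). The jigr1 site on 3R, with its summit at 25647060, lay 186 bp upstream of a start and had a signal of 102 and a score of 989. It was thresholded in replicate 1 (signal 62.1, score 1000) and not in replicate 2, where the highest score at jigr1 was 633. The CG4004 site on X, with its summit at 12751370 and a signal of 391, lay outside the gene, 5053 bp downstream of its nearest start, and was closest to lncRNA:CR44619. It was called in both replicates. The median of the highest score over the 12 genes was 104, against 131 over all genes.

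Among Dorsal and its partners, 1 of the 11 genes with a candidate was called in the conservative list (7.99% over all genes), gro, the Groucho corepressor that Dorsal recruits. Its site lay 102 bp upstream of a start, with a signal of 132 in the conservative list, 64.7 in replicate 1 and 61.7 in replicate 2, and a score of 1000 in each. In replicate 2 and the optimal list Dif, a Dorsal-related factor, and tub, an adaptor of the Toll pathway, were called as well, making 3 of 12 in replicate 2 (7.90% over all genes) and 3 of 11 in the optimal list (10.1%). tub had a conservative score of 828, just under the lowest thresholded score. Of 3 genes with textbook Adf1 sites, 0 were called in any list, and their highest conservative score was 799. Over all genes 6.20% (replicate 1) to 10.1% (optimal list) were called, and 0 of 3 cannot be told apart from such shares.

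By signal percentile in the 2 replicates, the genes most like Adf1 were Dpit47, which has the same peak in its window and so differed by 0, and ph-p, a Polycomb group gene (summed difference 0.0838 percentile points). Those most like brwl were jp, which also shares the peak (0), and CG42524 (0.0986). Those most like CG5953 were Dys, the dystrophin gene (0.409), and CG17047 (0.442). These likenesses rest on 2 libraries and 11670 genes, and with so many genes close neighbours are found for any gene.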

How the data were processed

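Peak lists from 2 biological replicates of 1 group were analysed. Per the text deposited with the samples, each replicate's lists came from its own alignments, the conservative and optimal lists from the alignments of both, and the assembly is dm6. The signal value, the scaled IDR score and the −log10 IDR of each peak are the authors' own, as deposited; no label or header used here names the aligner, the peak caller or the scaling of the signal. All 4 ranked lists are candidates. The thresholded lists are parts of them, and some candidates of high score lie outside these parts.

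Summits were placed at peak start plus summit offset and assigned to a gene when inside its body or within 2000 bp, using Ensembl release 115 models and RefSeq sequence of the same assembly (Python 3.11.15, pandas 2.3.3, numpy 2.4.6, scipy 1.17.1, matplotlib 3.10.9). Transposable elements were not counted as genes. The background was the 13968 protein-coding genes on 7 chromosome arms, scored across all genes in the same way. Values were compared within a list only, and the lists hold no read counts, so depth is unknown. The window, offset and motif code was tested on simulated data. Genes, lists and most alternatives were chosen with earlier results of these data known. Named genes are the members, the genes nearest to their thresholded summits, the pair most like each called member in signal percentile, the genes of 3 related lists that were called in the conservative list, and DIP2. The neighbours of single candidates (nearest start or containing gene) and Dif and tub were named after their values were seen.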

Additional observations from a re-analysis of the deposited data

How the results depend on the processing

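No paired analysis was possible because the series holds 1 group. The number of called members was 3 in the conservative list (7.99% over all genes with a candidate). It was 3 without replicate 1 (7.90%) and 2 without replicate 2, where CG5953 was not called (6.20%). It was 1 with the gene body alone (Adf1, 2.60% over all genes) and 2 within 500 bp of a start (4.71%). It was also 2 where the nearest start had to be the member's own (4.02% over all genes), a rule chosen after seeing the data, as was the split by window length. The other alternatives gave 3 (5.79% to 12.3% over all genes). The share of repeated summits was 100% at scores of at least 300 (3 of 3, the sites called in the conservative list) and 22.9% for replicate 2 summits. The median highest score was 46 to 92 without 1 replicate (45 over all genes in replicate 2 alone and 44 in replicate 1 alone), 76 in the gene body and 550.5 within 500 bp of it, where 6 genes had a candidate. The median offset was 655 to 1374 bp without 1 replicate and -307 bp for the summit of highest signal of each gene (1029 bp over all genes). The CTCF core was found at 2 members within 250 bp and at 0 called summits. The medians of 76 and 550.5 have no all-gene value beside them. The cause of these differences was not tested. Without read counts, the limit set by depth is unknown.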
